A study of Mus musculus with 6 samples.

Results

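The genes described here are 10 members of the pathway that prepares peptides for major histocompatibility complex (MHC) class I molecules: the peptide transporter genes Tap1 and Tap2, the loading factors Tapbp (tapasin) and Calr (calreticulin), the trimming peptidase Erap1, the immunoproteasome subunits Psmb8, Psmb9 and Psmb10, and the proteasome activator subunits Psme1 and Psme2. They were chosen by symbol, and all 10 were found among the 30406 Ensembl gene identifiers that the 6 libraries share. Py8119, a mouse mammary tumour line, was grafted into female mice, and droplet 3′ libraries were made from viable cells of the tumours that carried the leukocyte antigen CD45. The groups differ in where Mtdh (metadherin) was knocked out, and the series title names the host's Mtdh, liver lipid metabolism and CD8 T cells as its subject. Intact KO mice are labelled as Mtdh knockouts, with no tissue or allele given, and intact WT mice as wild type. The other 4 groups are marrow chimeras of irradiated hosts, written below as marrow→host: KO→KO, WT→KO, KO→WT and WT→WT. Grafting followed marrow transfer by 8 weeks, and tumours grew for 4 weeks. Each of the 6 groups holds 1 library, and neither the number of mice behind a library nor their ages are stated in the sources used. Hosts keep their own non-marrow cells and any immune cells that survived irradiation, and the same tumour line was injected in every group.

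Proteins are cut to peptides by the proteasome, whose standard catalytic subunits Psmb5, Psmb6 and Psmb7 are replaced by Psmb8, Psmb9 and Psmb10 in the immunoproteasome, and Psme1 and Psme2 form the PA28 cap that opens it. The Tap1 and Tap2 transporter moves the peptides into the endoplasmic reticulum (ER), Erap1 trims them there, and Tapbp and Calr hold MHC class I heavy chains at the transporter until a peptide binds. Interferon-gamma is known to induce most of these genes, whereas Calr is a general ER chaperone that is also induced when unfolded proteins accumulate. In tumours the pathway decides which peptides CD8 T cells can see on tumour cells, and in dendritic cells it serves cross-presentation.

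Start-site windows of 300 bases (250 before the start and 50 from it) were available for 9 of the 10 members in the RefSeq table of build GRCm38.p6, which is the mm10 assembly, and Tap2 had no entry. Tap1 and Psmb9 lie head to head on chromosome 17, their windows share 275 bases, and 225 bases separate their starts. The stretch is shown because the pair moved together in the results that follow. Psmb8 and Psmb9, whose windows do not overlap, did so as well. Capitals mark the bases between the starts of Tap1 and Psmb9, on the plus strand of chr17:34187306-34187605.
Tap1 and Psmb9: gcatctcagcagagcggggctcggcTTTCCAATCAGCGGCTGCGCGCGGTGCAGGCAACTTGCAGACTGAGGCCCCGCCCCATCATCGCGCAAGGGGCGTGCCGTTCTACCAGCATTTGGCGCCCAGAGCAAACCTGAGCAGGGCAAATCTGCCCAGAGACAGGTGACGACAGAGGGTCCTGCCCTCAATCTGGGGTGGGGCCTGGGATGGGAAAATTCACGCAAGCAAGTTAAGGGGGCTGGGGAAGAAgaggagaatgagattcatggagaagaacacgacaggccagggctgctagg
Among the other members the windows of Psme1 (chr14:55578244-55578543, plus strand) and Erap1 (chr13:74639603-74639902, plus strand) each held 1 match to the core of the interferon-stimulated response element, spelled GAAA, any 2 bases, GAAA and searched on both strands. Both matches lie on the reverse strand, at bases 260 to 269 of the Psme1 window and 247 to 256 of the Erap1 window, and are in capitals.
Psme1: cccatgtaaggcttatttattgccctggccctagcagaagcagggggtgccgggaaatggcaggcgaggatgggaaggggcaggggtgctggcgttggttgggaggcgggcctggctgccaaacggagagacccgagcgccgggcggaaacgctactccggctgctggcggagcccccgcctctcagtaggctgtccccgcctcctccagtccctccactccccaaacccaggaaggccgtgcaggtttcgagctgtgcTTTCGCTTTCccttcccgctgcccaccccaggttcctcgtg
Erap1: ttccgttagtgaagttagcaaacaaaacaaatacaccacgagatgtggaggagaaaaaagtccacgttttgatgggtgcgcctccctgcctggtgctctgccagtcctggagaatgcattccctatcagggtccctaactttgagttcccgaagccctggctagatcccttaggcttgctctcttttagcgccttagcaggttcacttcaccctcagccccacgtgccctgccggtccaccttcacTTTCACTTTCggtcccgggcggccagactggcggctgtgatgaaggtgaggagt
The window of Psmb8 (chr17:34197945-34198244, plus strand) held 1 match to the gamma-activated sequence TTCNNNGAA at bases 154 to 162 (capitals). The window of Calr (chr8:84846882-84847181, minus strand) held 1 match to the ER stress element, spelled CCAAT, any 9 bases, CCACG, on the reverse strand, at bases 89 to 107 (capitals), and is shown because Calr departed from the other members in what follows.
Psmb8: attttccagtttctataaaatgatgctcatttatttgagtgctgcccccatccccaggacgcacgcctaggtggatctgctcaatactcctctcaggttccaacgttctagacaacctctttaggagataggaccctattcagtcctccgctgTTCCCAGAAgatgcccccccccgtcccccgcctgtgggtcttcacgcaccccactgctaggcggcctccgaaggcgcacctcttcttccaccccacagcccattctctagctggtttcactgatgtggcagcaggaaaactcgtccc
Calr: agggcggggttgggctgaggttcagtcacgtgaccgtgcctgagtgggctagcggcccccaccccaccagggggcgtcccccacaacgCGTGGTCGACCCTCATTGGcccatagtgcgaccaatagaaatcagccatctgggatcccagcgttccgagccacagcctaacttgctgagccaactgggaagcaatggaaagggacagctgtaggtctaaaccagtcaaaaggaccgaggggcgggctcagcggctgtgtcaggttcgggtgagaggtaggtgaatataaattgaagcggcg
Of 32851 windows in the table, on either strand 3.44% held the interferon response core, 8.3% held TTCNNNGAA and 0.119% held the ER stress element. The windows of Tap1, Psmb9, Tapbp, Psmb10 and Psme2 held no match to any of the 3. A match describes letters in a window and was not tested as a binding site.

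The 6 libraries held between 85616443 and 142779550 UMIs (unique molecular identifiers, each standing for 1 captured transcript). Of 41267 barcodes, 40414 passed the cell filter and 34291 were assigned to 1 of 14 classes by marker gates that used no member gene. Library pairs shared between 8 and 25 barcodes. Levels are CPM, the UMIs of a gene scaled to a total of 1000000 UMIs for its class in its library. Since 3′ counts were not compared per length and capture differs between transcripts, levels are compared between classes or libraries within a gene, not between genes. With 1 library per group, a p-value measures the spread between these libraries only. Intact and transplanted libraries were processed with different software versions. Genotype fits therefore hold a term for transplantation, and where all 6 levels are listed side by side the version differs between the intact and the transplanted libraries.

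The targeted gene was low wherever the marrow was KO. In macrophages Mtdh stood at 16.4 CPM in intact KO and 13.5 CPM in KO→KO, against 110.1 in WT→KO, 20.4 in KO→WT, 113 in WT→WT and 111 in intact WT. The 3 libraries with KO marrow lie below the 3 with WT marrow, whatever the host. Mesenchymal-like cells carried 6 of 6 markers (Krt8, Krt18, Sparc, Col1a1, Col3a1 and Igfbp7) in every library, but were gated on these same markers. In this class Mtdh stood at 461 CPM in intact KO and 404 CPM in KO→KO, against 371 in WT→KO, 417 in KO→WT, 420.3 in WT→WT and 412 in intact WT. No library stands apart there. Ptprc, which encodes the sorted antigen CD45, was between 5.92 and 12.6 CPM in mesenchymal-like cells and between 348 and 448 CPM in macrophages. The summed macrophage markers were between 292 and 488 CPM in mesenchymal-like cells, against 13310.0 to 17400.0 CPM in macrophages. The gates set a limit on macrophage markers in both classes, so this contrast follows from them. Whether mesenchymal-like cells come from the injected tumour line or from the host was not tested, so for them host and marrow KO name the mouse that carried the tumour and may not be the genotype of the cells.

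Across cell classes the transporter genes Tap1 and Tap2 and the immunoproteasome genes Psmb8 and Psmb9 were highest in conventional type 1 dendritic cells (cDC1, the main cross-presenting class) and lowest in mesenchymal-like cells, by the median over libraries, while Calr ran in another order. Tap1 had a median of 259 CPM over 5 libraries in cDC1, against 106 in CD8 T cells, 36.8 in macrophages and 11.2 in mesenchymal-like cells over 6 libraries each. Psmb8 had a median of 1334 CPM in cDC1, 1100.0 in mature dendritic cells and 996 in CD8 T cells, with 334 in macrophages, 169 in neutrophils and 112 in mesenchymal-like cells. Psmb9, encoded beside Tap1, followed with 689 CPM in cDC1, 80.3 in macrophages and 30.3 in mesenchymal-like cells. Adjacent classes in these orders overlapped in their ranges over libraries for Tap1, Tap2, Tapbp, Calr, Psmb8, Psmb9 and Psmb10, so neighbours there are not separated.

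By the ranges over libraries, the exceptions among neighbouring classes concern the PA28 genes and Erap1. Psme1 had medians of 1212 CPM in mature dendritic cells and 989 CPM in cDC1, and the lowest cDC1 library, at 669.6 CPM, lay above the highest library of the next class, CD8 T cells, at 652 CPM. Psme2 had a median of 931 CPM in mature dendritic cells, whose lowest library, at 762 CPM, lay above every library of the next class, regulatory T cells, which had a median of 457 CPM over 4 libraries. Erap1 had medians between 23.6 and 43.0 CPM in 10 of the 11 classes compared, and 13.7 CPM in neutrophils. The highest neutrophil library, WT→KO at 19.3 CPM, rests on 9 UMIs (95% interval 8.82 to 36.6 CPM). It lay just below the lowest library of mesenchymal-like cells, KO→WT at 19.6 CPM, a gap within counting error. Calr was highest in macrophages (663 CPM), cDC1 (594 CPM) and mesenchymal-like cells (568 CPM) and lowest in mature dendritic cells (144 CPM). The order for Calr thus placed mesenchymal-like cells near the top and mature dendritic cells at the bottom, whereas for Psmb8 mature dendritic cells came second and mesenchymal-like cells last.

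**Figure D1:**
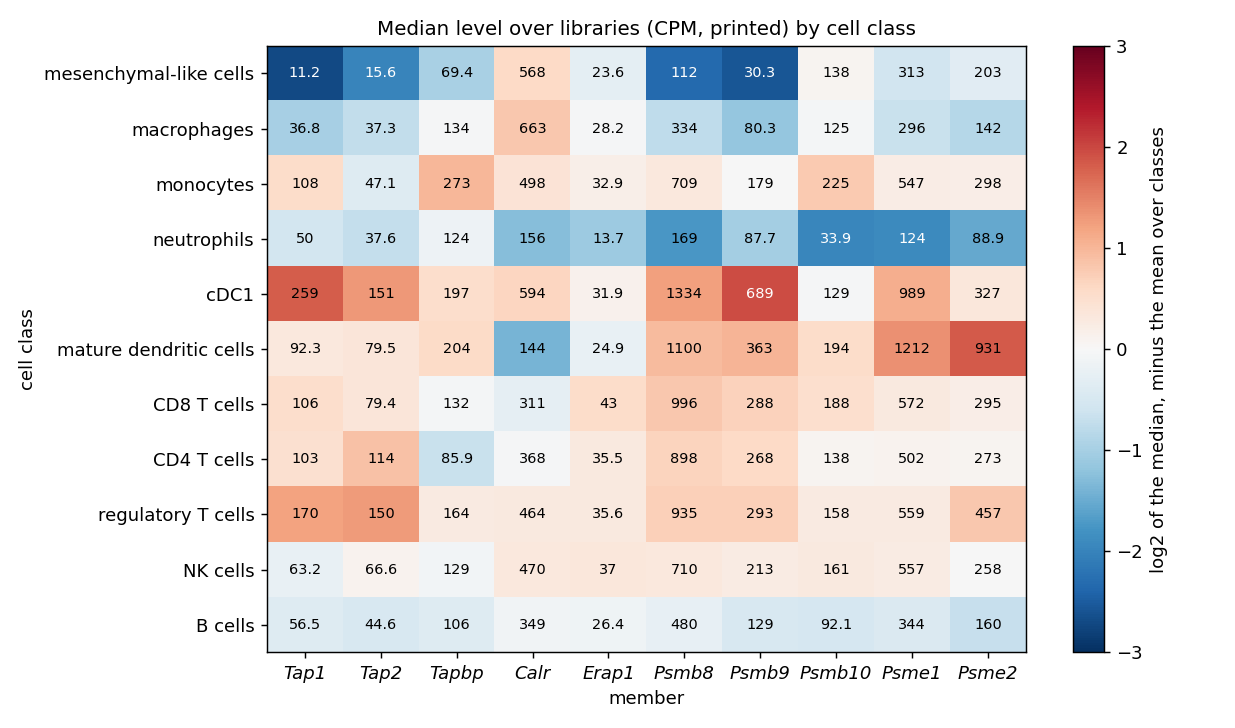
Median level in CPM over libraries for each member (columns) in 11 cell classes (rows), printed in each cell; the colour is the log2 of that median minus the gene's mean over classes. Mesenchymal-like cells show 11.2 CPM for Tap1 and 112 CPM for Psmb8, cDC1 show 259 and 1334 CPM, and Calr is at 144 CPM in mature dendritic cells.

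Class differences were tested within libraries, with the library as a block and edgeR's quasi-likelihood test fitted on all genes (Benjamini-Hochberg adjusted p under 0.05). In mesenchymal-like cells 8 of 10 members were lower than in macrophages, in a comparison that called 76.7% of all genes, 40.6% lower and 36.1% higher. The log2 difference was -1.93 (SE 0.19, adjusted p = 1.26e-05) for Tap1, -1.78 (SE 0.17, adjusted p = 1.49e-05) for Psmb8 and -0.75 (SE 0.07, adjusted p = 4.87e-06) for Calr. Psme1 differed by -0.26 (SE 0.05, adjusted p = 0.000591), and neither Psmb10 at -0.10 (SE 0.08, adjusted p = 0.284) nor Psme2 at -0.03 (SE 0.08, adjusted p = 0.78) passed. Scaling by library totals in place of TMM (trimmed mean of M-values) moved the median of all genes in this comparison by over 0.1, to 0.31 from -0.06, and placed Psmb10 at 0.27 (adjusted p = 0.0123), Psme1 at 0.12 (adjusted p = 0.0489) and Psme2 at 0.35 (adjusted p = 0.00273), so the direction of these 3 genes depends on the scaling. Under library totals 7460 genes were higher and 4758 lower, against 5627 higher and 6343 lower with TMM.

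cDC1 exceeded macrophages in 6 of 10 members, in a comparison that called 32% of all genes, 12% higher and 20% lower. Psmb9 differed most, by 2.64 (SE 0.24, adjusted p = 4.37e-05) on the log2 scale, followed by Tap1 at 2.05 (SE 0.43, adjusted p = 0.0216) and Tap2 at 1.60 (SE 0.22, adjusted p = 0.000161). Psmb8, Psme1 and Psme2 were the remaining members that were higher, at 1.57, 1.52 and 0.83. Mature dendritic cells were higher in 8 members, where 44.4% of all genes were called, 17.2% higher and 27.2% lower, led by Psme2 at 2.50 (SE 0.13, adjusted p = 5.08e-17), and lower in Calr at -2.16 (SE 0.14, adjusted p = 9.96e-15). CD8 T cells were higher than macrophages in 4 members and lower in Calr, where 57.5% of all genes were called, 24.1% higher and 33.4% lower. Psmb9 differed by 1.28 (SE 0.30, adjusted p = 0.00883) and Psmb8 by 1.06 (SE 0.24, adjusted p = 0.00523), and Calr by -1.31 (SE 0.12, adjusted p = 6.75e-07). The CD8 calls of Psme1 (0.57) and Psme2 (0.54) were lost, at 0.43 to 0.57, with no filter on low counts and without the WT→KO, the KO→WT, the WT→WT or the intact WT library, and 3 members passed in all without 1 of the first 3 of these libraries and with no filter. The cDC1 call of Tap1 was lost without WT→KO (1.9), without intact WT (1.99) and with the transplanted libraries alone (2.35). DESeq2, which differs in both the scaling and the test and moved the all-gene median by over 0.1 in these 3 comparisons, split the calls for cDC1 into 2054 higher and 2212 lower, against 1680 higher and 2793 lower with edgeR and TMM. For mature dendritic cells it gave 2749 higher and 2875 lower, against 2415 higher and 3816 lower. For CD8 T cells library totals in place of TMM, with edgeR kept, gave 4552 higher and 4174 lower, against 3604 higher and 4979 lower.

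In macrophages the libraries in which host and marrow were both KO stood above the other 4 for 9 of 10 members. Of all genes with a mean of at least 10 CPM, 10.5% did so. Tap1, which with Tap2 forms the transporter, stood at 103 CPM in intact KO and 167 CPM in KO→KO, against 42.3 in WT→KO, 31.3 in KO→WT, 29.5 in WT→WT and 24.8 in intact WT. Both libraries with KO in host and marrow were well above every other library, and WT→KO was the highest of the remaining 4. Tap2 stood at 63.0 CPM in intact KO and 97.4 CPM in KO→KO, against 38.5 in WT→KO, 36.1 in KO→WT, 34.5 in WT→WT and 23.6 in intact WT, with the same separation. Tapbp, which bridges the transporter and the MHC class I heavy chain, stood at 238 CPM in intact KO and 294 CPM in KO→KO, against 144 in WT→KO, 122 in KO→WT, 106 in WT→WT and 123 in intact WT. Here too the ranges did not overlap.

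The immunoproteasome subunits showed the same split. Psmb8 stood at 592 CPM in intact KO and 863 CPM in KO→KO, against 338 in WT→KO, 330.2 in KO→WT, 291 in WT→WT and 289.7 in intact WT. Psmb9 stood at 168 CPM in intact KO and 246 CPM in KO→KO, against 86.5 in WT→KO, 74.0 in KO→WT, 65.4 in WT→WT and 64.3 in intact WT. Psmb10 stood at 172 CPM in intact KO and 251 CPM in KO→KO, against 129 in WT→KO, 122 in KO→WT, 111 in WT→WT and 122 in intact WT. In all 3 the KO→KO library was highest and the 4 libraries with WT in host, marrow or both lay close together. The PA28 genes followed, Psme1 with 408 CPM in intact KO and 540.2 CPM in KO→KO, against 315 in WT→KO, 268 in KO→WT, 249 in WT→WT and 278 in intact WT, and Psme2 with 249 CPM in intact KO and 354 CPM in KO→KO, against 142 in WT→KO, 142 in KO→WT, 136 in WT→WT and 137 in intact WT. Erap1 stood at 33.2 CPM in intact KO and 39.2 CPM in KO→KO, against 27.3 in WT→KO, 26.1 in KO→WT, 26.4 in WT→WT and 29.2 in intact WT, a narrower gap without overlap. Calr was the exception, with 654 CPM in intact KO and 841 CPM in KO→KO, against 668 in WT→KO, 701 in KO→WT, 658 in WT→WT and 625 in intact WT. Its intact KO library lay inside the range of the other 4.

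**Figure D2:**
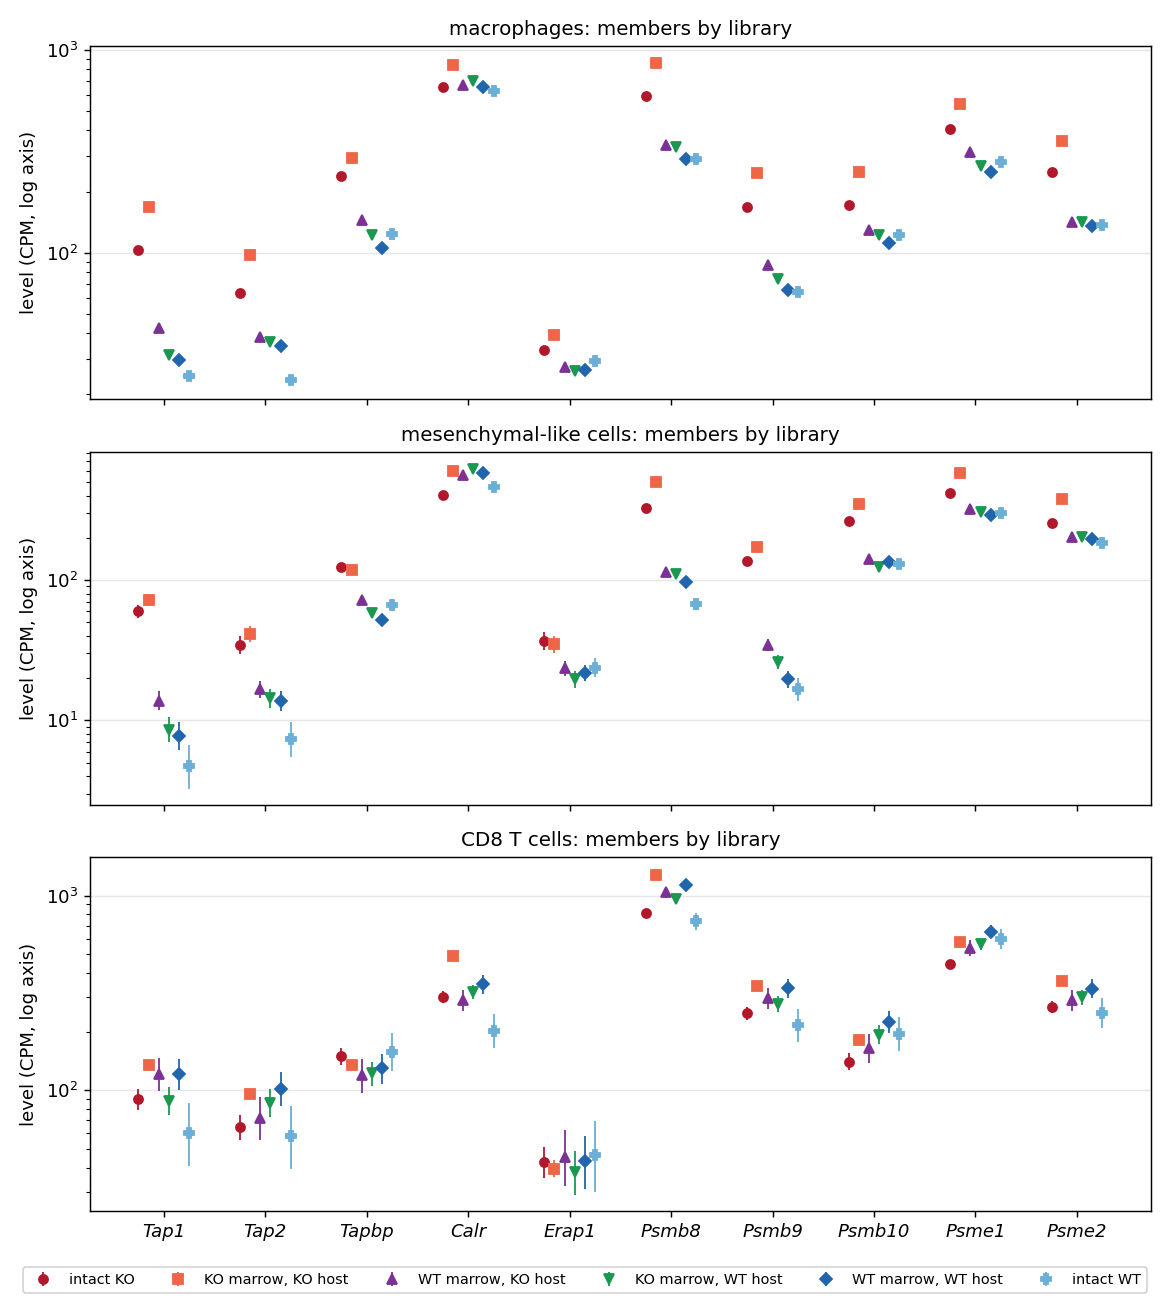
Level of each member in CPM (log axis) in macrophages, mesenchymal-like cells and CD8 T cells, 1 point per library with its exact Poisson 95% interval, which covers counting error only. In the upper panels the points of intact KO and KO marrow in KO host (for Tap1 in macrophages 103 and 167 CPM) lie above the other 4 libraries (24.8 to 42.3 CPM) for all members but Calr, and in CD8 T cells the 6 libraries intermingle.

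A term for both KO, beside a term for transplantation, was fitted with 3 residual degrees of freedom. This contrast was chosen because earlier results of these data had shown the 2 libraries apart, and the p-values take no account of this. In macrophages 10 of 10 members were higher by edgeR, while 15.4% of the 15090 genes tested were called, 8.52% higher and 6.87% lower. The log2 differences were 2.28 (SE 0.15, adjusted p = 0.00188) for Tap1, 1.68 (SE 0.12, adjusted p = 0.00221) for Psmb9, 1.51 (SE 0.07, adjusted p = 0.000694) for Tap2 and 1.37 (SE 0.11, adjusted p = 0.00228) for Psmb8. Psme2 rose by 1.24 (SE 0.10, adjusted p = 0.0028) and Tapbp by 1.22 (SE 0.13, adjusted p = 0.00511). Psmb10 (0.93) and Psme1 (0.90) rose by less, and Erap1 by 0.50 (SE 0.09, adjusted p = 0.0176). Erap1 lost its call without WT→KO (0.50, adjusted p = 0.0601), KO→WT (0.49, adjusted p = 0.057) or WT→WT (0.47, adjusted p = 0.0501), and without KO→KO, where it was at 0.27 (adjusted p = 0.106). Calr, at 0.31 (SE 0.08, adjusted p = 0.0497), lay at the threshold and lost its call under library totals (0.22, adjusted p = 0.117), with no filter on low counts, and without any 1 of the libraries other than intact KO. The fits without intact KO and without intact WT (0.39) rest on the same contrast, since the transplantation term takes up a lone intact library. They are thus not separate checks. Without the KO→KO library 7 members passed, since Calr, Erap1 and Psme1 (0.63, adjusted p = 0.054) did not. The members' median was 1.23, beside -0.01 over all genes. Library totals in place of TMM moved the all-gene median to -0.11 and the split to 1010 genes higher and 1714 lower, against 1285 higher and 1036 lower, and left all members above 0.

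Neither host nor marrow genotype alone gave a member a call in macrophages by edgeR. With additive terms for host and marrow (2 residual degrees of freedom), 0 of 10 members passed for host, where edgeR called 0 genes (0.0%), 633 genes had an unadjusted p below 0.05, and DESeq2 called 139 genes, Tap1 among them. For marrow, 0 of 10 members passed, edgeR called 0 genes (0.0%), 621 had an unadjusted p below 0.05, and DESeq2 called 47 genes and no member. By values, 10 of 10 members were higher with the KO host in 3 of 3 matched pairs and 9 of 10 with KO marrow in 3 of 3, where 11% and 9.95% of genes with a mean of at least 10 CPM were. The intact pair enters both counts, and so does the KO→KO library. Only WT→KO over WT→WT for host, and KO→WT over WT→WT for marrow, hold no library with both KO. Tap1 exceeded its match by 2.06 (intact KO over intact WT), 2.41 (KO→KO over KO→WT) and 0.52 (WT→KO over WT→WT) on the log2 scale. For marrow the pairs gave 2.06 (intact), 1.98 (KO→KO over WT→KO) and 0.09 (KO→WT over WT→WT). The gap was thus small where the other compartment was WT. A host by marrow interaction, added after seeing the data and left with 1 residual degree of freedom, was 1.98 (SE 0.31, edgeR adjusted p = 0.761) for Tap1. It passed for 0 of 10 members in macrophages by edgeR, where 0.0% of 16007 genes were called and 799 had an unadjusted p below 0.05. DESeq2 called 77 genes, Tap1 among them.

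Cxcl9, an interferon-gamma-induced chemokine that is no member, moved with these libraries: macrophages held 1483 CPM in intact KO and 1982 CPM in KO→KO, against 178 in WT→KO, 117 in KO→WT, 25.2 in WT→WT and 136 in intact WT. Macrophages were divided by whether they carried a Cxcl9 UMI, which depends on depth as well. Those with no Cxcl9 UMI made up 24% of macrophages in intact KO (1007 cells) and 19.3% in KO→KO (813 cells), against 78.5% in WT→KO, 88.5% in KO→WT, 97% in WT→WT and 86.7% in intact WT. The split thus rests on a gene that itself moves with both KO, and each fraction is a different slice of its library. In macrophages with no Cxcl9 UMI, Tap1 stood at 63.5 CPM in intact KO and 132 CPM in KO→KO, against 34.1 in WT→KO, 27.5 in KO→WT, 28.3 in WT→WT and 22.8 in intact WT. In those with one, it stood at 114 CPM in intact KO and 173 CPM in KO→KO, against 67.4 in WT→KO, 55.7 in KO→WT, 61.1 in WT→WT and 36.2 in intact WT. Psmb8 in macrophages with no Cxcl9 UMI stood at 460.2 CPM in intact KO and 751 CPM in KO→KO, against 309.7 in WT→KO, 309.9 in KO→WT, 287 in WT→WT and 276 in intact WT. By value the libraries with host and marrow KO lay above the other 4 in both fractions for both genes, and levels in unlike slices are not a comparison of like cells. Among macrophages with no Cxcl9 UMI 9 members passed for both KO (all but Calr), while edgeR called 15.4% of all genes, 7.98% higher and 7.4% lower, with Tap1 at 1.97 and Psmb8 at 1.18. T-cell markers summed to 9.16 and 29.8 CPM in macrophages of intact KO and KO→KO, against 3.13 to 7.53 CPM in the other 4, beside 4301 to 6365 CPM in CD8 T cells. The summed markers of mature dendritic cells (5 of 5 detected) were 19.8 and 23.5 CPM in macrophages of intact KO and KO→KO, against 7.18 to 16.2 CPM in the other 4, and those of cDC1 (4 of 4) were 305 CPM in both, against 228 to 275 CPM. All 3 lists were higher there without overlap. The sums were not split by gene, and their part in the result was not tested.

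**Figure D3:**
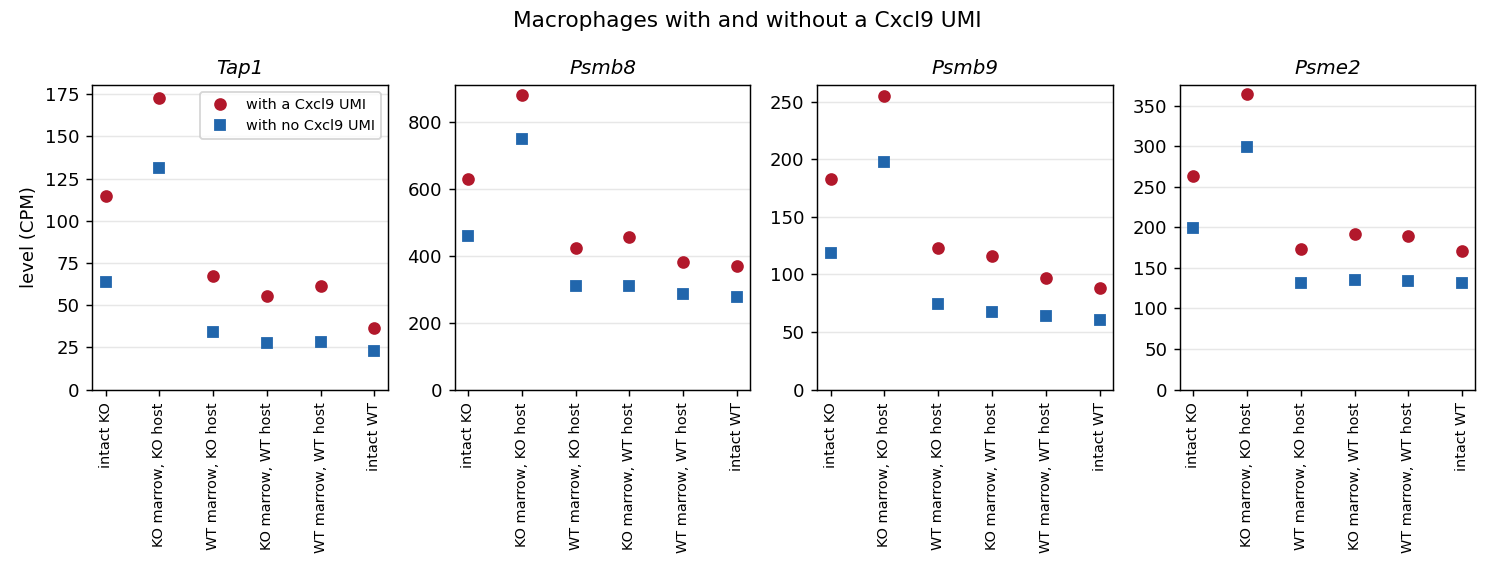
Level in CPM of Tap1, Psmb8, Psmb9 and Psme2 in macrophages with a Cxcl9 UMI (red circles) and with none (blue squares), by library, without error bars since each group holds 1 library. Levels are higher with a Cxcl9 UMI in every library shown, and intact KO and KO marrow in KO host are highest in both fractions, for Tap1 63.5 and 132 CPM without Cxcl9 against 22.8 to 34.1 CPM in the other 4.

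Mesenchymal-like cells, whose Mtdh level did not follow the labels, showed a wide split of the members between libraries. Tap1 stood at 59.8 CPM in intact KO and 72.5 CPM in KO→KO, against 13.9 in WT→KO, 8.60 in KO→WT, 7.78 in WT→WT and 4.75 in intact WT. The lowest value rests on 32 UMIs in intact WT and the highest on 404 UMIs in KO→KO. Tap2 stood at 34.7 CPM in intact KO and 41.3 CPM in KO→KO, against 16.7 in WT→KO, 14.5 in KO→WT, 13.8 in WT→WT and 7.43 in intact WT. Tapbp stood at 123 CPM in intact KO and 118 CPM in KO→KO, against 72.0 in WT→KO, 57.8 in KO→WT, 52.2 in WT→WT and 66.8 in intact WT. Libraries with KO in host and marrow lay above the rest in all 3 genes, and for Tap1 and Tap2 WT→KO led the others and intact WT was lowest.

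Psmb8 in mesenchymal-like cells measured 325 CPM in intact KO and 499 CPM in KO→KO, against 115 in WT→KO, 109.9 in KO→WT, 97.5 in WT→WT and 67.0 in intact WT. Psmb9 stood at 136 CPM in intact KO and 171 CPM in KO→KO, against 34.6 in WT→KO, 26.0 in KO→WT, 19.7 in WT→WT and 16.8 in intact WT, and Psmb10 at 263 CPM in intact KO and 349 CPM in KO→KO, against 142 in WT→KO, 125 in KO→WT, 135 in WT→WT and 129.8 in intact WT. Intact KO and KO→KO again exceeded every other library, by a wider margin for Psmb8 and Psmb9 than for Psmb10. Psme1 stood at 419 CPM in intact KO and 577 CPM in KO→KO, against 320.2 in WT→KO, 306 in KO→WT, 291 in WT→WT and 302 in intact WT. Psme2 stood at 255 CPM in intact KO and 379 CPM in KO→KO, against 203 in WT→KO, 203 in KO→WT, 195 in WT→WT and 183 in intact WT, and Erap1 at 36.9 CPM in intact KO and 34.8 CPM in KO→KO, against 23.4 in WT→KO, 19.6 in KO→WT, 21.9 in WT→WT and 23.8 in intact WT. These 3 separated without overlap but by less. Calr stood at 406 CPM in intact KO and 597 CPM in KO→KO, against 556 in WT→KO, 617 in KO→WT, 579.6 in WT→WT and 459 in intact WT, and its lowest library was intact KO.

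For both KO 9 of 10 members rose in mesenchymal-like cells, while 3.02% of the 12197 genes tested were called, 2.03% higher and 0.992% lower. The log2 differences were 3.11 (SE 0.28, adjusted p = 0.00316) for Tap1, 2.83 (SE 0.22, adjusted p = 0.00127) for Psmb9, 2.28 (SE 0.11, adjusted p = 2.56e-05) for Psmb8 and 1.75 (SE 0.20, adjusted p = 0.00222) for Tap2. Psmb10 rose by 1.28 (SE 0.10, adjusted p = 0.000307), Tapbp by 0.97 (SE 0.14, adjusted p = 0.00654), and Psme1 and Psme2 by 0.78 each. Erap1 rose by 0.70 (SE 0.13, adjusted p = 0.025), and Calr was at -0.01 (SE 0.10, adjusted p = 0.97). The Erap1 call was lost without KO→WT (0.66, adjusted p = 0.0746). It was also lost, at 0.68, without intact KO, without intact WT and with the transplanted libraries alone. These last fits rest on the same contrast, since the transplantation term takes up a lone intact library. Without KO→KO 6 members passed, since Erap1 (0.70, adjusted p = 0.0868), Psme1 (0.54, adjusted p = 0.0713) and Psme2 (0.54, adjusted p = 0.0614) did not. By values, both libraries with host and marrow KO lay above the other 4 for 9 of 10 members, where 8.49% of genes with a mean of at least 10 CPM did so, against 10.5% and 9 of 10 in macrophages.

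Host genotype gave 0 of 10 members a call in mesenchymal-like cells (0.131% of genes, 651 genes under an unadjusted p of 0.05), and DESeq2 called 80 genes, Tap1 among them. Without WT→KO 6 members passed for host. KO hosts are then only the libraries with both KO, so that count is not of host alone. Without WT→WT Tap1 and Tap2 passed for host. Marrow genotype likewise gave 0 of 10 (0.0164% of genes, 0.0082% in each direction, with 490 genes under an unadjusted p of 0.05), with DESeq2 calling 27 genes and no member. Without KO→WT 4 members passed for marrow. KO marrow is then found only in the libraries with both KO, so that count is not of marrow alone. The host by marrow interaction passed for Psmb8 at 1.93 (SE 0.31, adjusted p = 0.0175), while 0.171% of all genes passed, and Psmb9 was at 1.89 (SE 0.36, adjusted p = 0.0556). The Psmb8 value was 1.94 under library totals (adjusted p = 0.103), 1.95 with a stricter gate (adjusted p = 0.0863) and 1.99 with the highest doublet scores removed (adjusted p = 0.103), so the call was lost at a difference as large.

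The both-KO difference itself was compared between classes in a fit of both classes with library as a block, added after seeing the data. It was larger in mesenchymal-like cells than in macrophages for Psmb9 by 1.20 (SE 0.17, adjusted p = 0.00428), for Psmb8 by 0.96 (SE 0.12, adjusted p = 0.00104) and for Tap1 by 0.85 (SE 0.21, adjusted p = 0.0457), and smaller for Psme2, at -0.41 (SE 0.09, adjusted p = 0.0223), so 3 members were higher and 1 lower where 5.62% of genes were called, 3.77% higher and 1.85% lower. With the transplanted libraries alone, and without intact KO, KO→WT or intact WT, Psmb8 and Psmb9 alone passed. In that fit, leaving out either intact library gives the same contrast as the transplanted libraries alone. C1q transcripts, which are macrophage markers, reached between 2.06% and 2.79% of their macrophage level in mesenchymal-like cells. At that share macrophage Tap1 would give 2.21 and 3.44 CPM in intact KO and KO→KO, and 0.635 to 1.18 CPM in the other 4. The Tap1 levels measured there were 59.8 and 72.5 CPM in intact KO and KO→KO, and 4.75 to 13.9 CPM in the other 4. The summed T-cell markers (5 of 5 detected) were 6.31 and 21.5 CPM in mesenchymal-like cells of intact KO and KO→KO, against 2.52 to 7.54 CPM in the other 4. The summed macrophage markers (6 of 6) were 292 and 338 CPM there, against 399.7 to 488 CPM. The summed cDC1 markers (4 of 4) were 14.4 and 24.8 CPM there, against 5.77 to 7.28 CPM in the other 4, without overlap, beside T-cell markers that overlapped. Mesenchymal-like cells were gated for low macrophage markers, so their C1q share may be held down by the gate. The marker sums were not split by gene, and the part of macrophage, T-cell and cDC1 transcripts in the result was not tested.

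The immunoproteasome subunits were also set against the standard subunits they replace, as ratios of UMIs within a library, which no scaling affects. Psmb8 over Psmb5 in mesenchymal-like cells was 1.81 in intact KO and 2.05 in KO→KO, against 0.518 in WT→KO, 0.515 in KO→WT, 0.421 in WT→WT and 0.350 in intact WT. In macrophages it was 4.64 in intact KO and 4.89 in KO→KO, against 2.28 in WT→KO, 2.05 in KO→WT, 1.74 in WT→WT and 2.30 in intact WT. Mesenchymal-like cells thus held more Psmb8 than Psmb5 UMIs in the 2 libraries with host and marrow KO and more Psmb5 in the other 4, whereas macrophages had more Psmb8 in all 6. Psmb9 over Psmb6 in mesenchymal-like cells was 0.594 in intact KO and 0.620 in KO→KO, against 0.106 in WT→KO, 0.093 in KO→WT, 0.071 in WT→WT and 0.057 in intact WT, and in macrophages it was 1.16 in intact KO and 1.43 in KO→KO, against 0.517 in WT→KO, 0.470 in KO→WT, 0.419 in WT→WT and 0.405 in intact WT. Psmb10 over Psmb7 in mesenchymal-like cells was 1.78 in intact KO and 2.25 in KO→KO, against 0.975 in WT→KO, 0.836 in KO→WT, 0.939 in WT→WT and 0.982 in intact WT. In macrophages the last ratio was 1.80 in intact KO and 2.30 in KO→KO, against 1.45 in WT→KO, 1.29 in KO→WT, 1.15 in WT→WT and 1.31 in intact WT. In CD8 T cells the libraries with host and marrow KO were the lowest for Psmb10 over Psmb7, with 1.78 in intact KO and 1.74 in KO→KO, against 2.14 in WT→KO, 2.74 in KO→WT, 2.55 in WT→WT and 2.78 in intact WT. A UMI ratio of 2 different genes depends on how well each is captured, so its value of 1 marks no equality of protein.

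**Figure D4:**
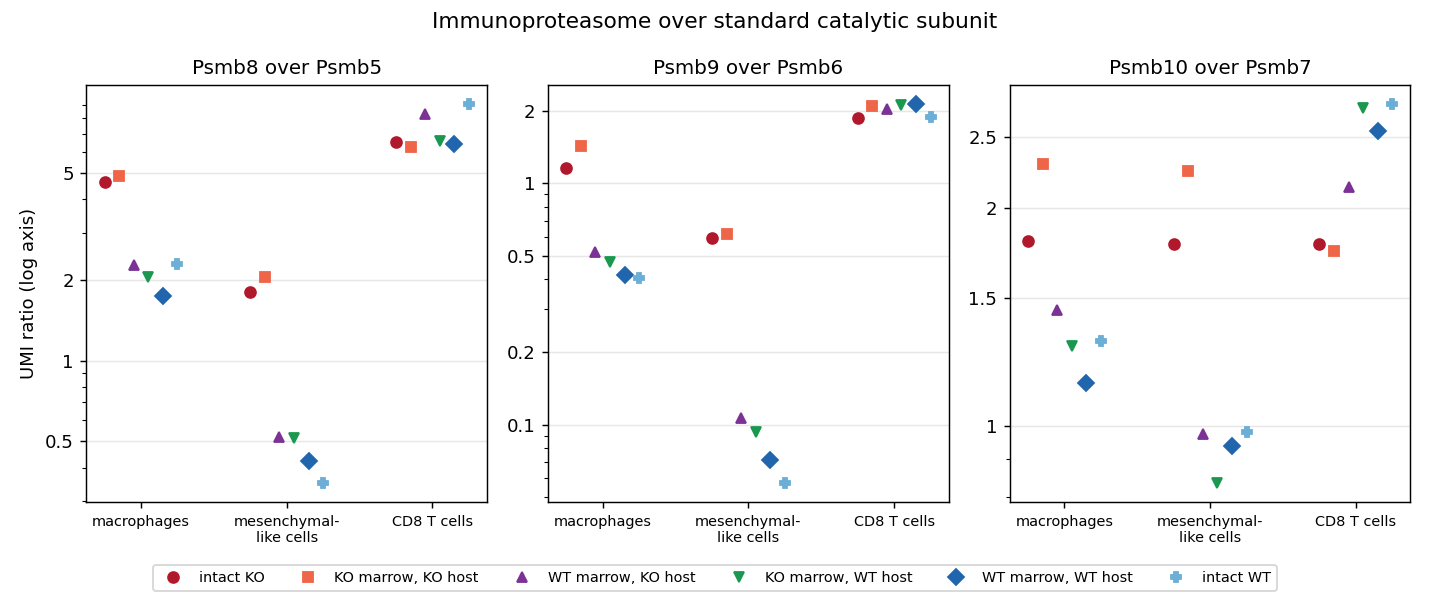
UMIs of Psmb8, Psmb9 and Psmb10 over those of the standard subunits Psmb5, Psmb6 and Psmb7 (log axis), by class, 1 point per library and no error bars. Psmb8 over Psmb5 in mesenchymal-like cells is 1.81 and 2.05 in intact KO and KO marrow in KO host against 0.350 to 0.518 in the other 4, and between 6.24 and 9.05 in CD8 T cells of all 6 libraries.

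In CD8 T cells the 10 members ranged over the libraries without such a split. Tap1 stood at 89.8 CPM in intact KO and 135 CPM in KO→KO, against 122 in WT→KO, 88.3 in KO→WT, 121 in WT→WT and 60.3 in intact WT. Psmb8 stood at 813 CPM in intact KO and 1277 CPM in KO→KO, against 1037 in WT→KO, 955 in KO→WT, 1135 in WT→WT and 739.6 in intact WT. Psmb9 stood at 249 CPM in intact KO and 345 CPM in KO→KO, against 297 in WT→KO, 278 in KO→WT, 334 in WT→WT and 216 in intact WT. KO→KO was highest in all 3, but intact KO lay among the other libraries. Psme1 stood at 443 CPM in intact KO and 580.0 CPM in KO→KO, against 536 in WT→KO, 564 in KO→WT, 652 in WT→WT and 599 in intact WT, with intact KO lowest. Calr stood at 302 CPM in intact KO and 491 CPM in KO→KO, against 289.9 in WT→KO, 321 in KO→WT, 350.1 in WT→WT and 202 in intact WT. For 0 of 10 members did both libraries with host and marrow KO exceed the other 4, where 8.59% of genes did.

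For both KO 0 of 10 members passed in CD8 T cells, where edgeR called 3.5% of the 8822 genes tested (1.24% higher and 2.27% lower), 1438 genes had an unadjusted p below 0.05 and DESeq2 called 306 genes and no member. Calr, at 0.54 (SE 0.15, adjusted p = 0.0621), was called with library totals and with no filter on low counts. Tap1 was at 0.33 (SE 0.19, adjusted p = 0.431) and Psmb8 at 0.17 (SE 0.12, adjusted p = 0.562). Host genotype gave 0 of 10 members a call by edgeR (2.07% of genes, 1.43% higher and 0.646% lower, 1149 with an unadjusted p below 0.05) and by DESeq2, which called 127 genes. Marrow genotype likewise gave 0 of 10 by edgeR (0.204% of genes, 0.181% higher and 0.0227% lower, 372 with an unadjusted p below 0.05) and by DESeq2, which called 12 genes. The interaction of host and marrow, added after seeing the data, passed for 0 of 10 (0.322% of genes, 0.0208% higher and 0.301% lower, 544 with an unadjusted p below 0.05), with 13 genes called by DESeq2. The CD8 class held 71 to 1211 cells per library, fewer than macrophages, and a p that misses the threshold does not show that values are equal. The test of the difference between classes, added after seeing the data, gave a smaller both-KO difference in CD8 T cells than in macrophages for 8 of 10 members, where 5.17% of genes were called, 1.69% higher and 3.48% lower (252 genes higher and 519 lower by edgeR, 102 higher and 431 lower by DESeq2). It was -1.91 (SE 0.21, adjusted p = 9.33e-09) for Tap1, -1.49 (SE 0.19, adjusted p = 1.71e-07) for Psmb9 and -1.14 (SE 0.17, adjusted p = 3.65e-06) for Psmb8. Neither Erap1 at -0.62 (SE 0.24, adjusted p = 0.143) nor Calr at 0.29 (SE 0.17, adjusted p = 0.463) passed. C1q transcripts in CD8 T cells were between 2.94% and 4.18% of the macrophage level.

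**Figure D5:**
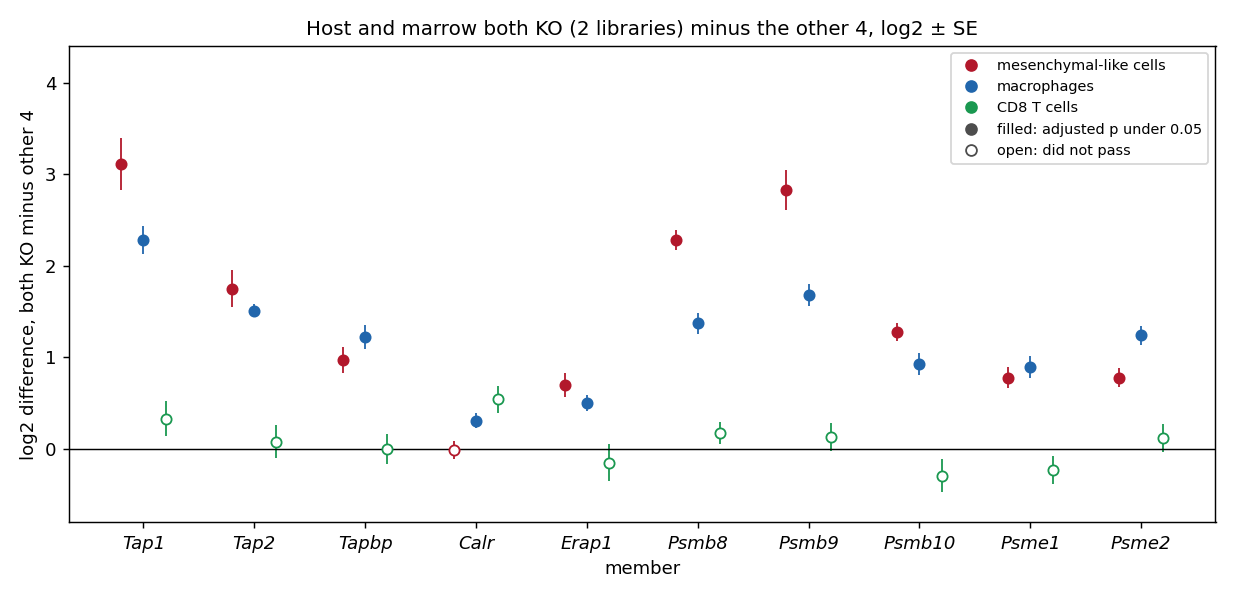
Log2 difference of the 2 libraries with host and marrow both KO from the other 4, fitted beside a term for transplantation, for each member in mesenchymal-like cells, macrophages and CD8 T cells. Bars are its standard error. Filled points passed the adjusted p of 0.05; Tap1 is at 3.11 in mesenchymal-like cells, 2.28 in macrophages and 0.33 in CD8 T cells, and Calr is near 0 in mesenchymal-like cells.

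Smaller classes were described without a test of genotype. In monocytes (21 to 199 cells per library) Tap1 stood at 186 CPM in intact KO and 271 CPM in KO→KO, against 136 in WT→KO, 33.9 in KO→WT, 48.3 in WT→WT and 80.5 in intact WT. The KO→WT level rests on 9 UMIs. Psmb8 stood at 770.1 CPM in intact KO and 1138 CPM in KO→KO, against 847 in WT→KO, 376 in KO→WT, 471 in WT→WT and 648 in intact WT. WT→KO lay between intact KO and KO→KO for Psmb8, and below both for Tap1. In neutrophils (40 to 356 cells) Tap1 stood at 60.4 CPM in intact KO and 259 CPM in KO→KO, against 60.0 in WT→KO, 28.0 in KO→WT, 40.0 in WT→WT and 29.0 in intact WT. KO→KO was highest. The intact KO level rests on 10 UMIs (95% interval 29.0 to 111.1 CPM) and that of intact WT on 7 UMIs, so these counts do not place intact KO. In cDC1 (28 to 49 cells in the 5 libraries used) Tap1 stood at 237 CPM in intact KO and 412 CPM in KO→KO, against 259 in WT→KO, 278 in WT→WT and 132 in intact WT, and Psmb9 at 689 CPM in intact KO and 1232 CPM in KO→KO, against 816 in WT→KO, 616 in WT→WT and 466 in intact WT. KO→KO was highest in both, and intact KO lay inside the range of the others. Mature dendritic cells (25 to 77 cells) held Psme2 at 1061 CPM in intact KO and 1580.0 CPM in KO→KO, against 915 in WT→KO, 948 in KO→WT, 821 in WT→WT and 762 in intact WT, and Tap1 at 160.3 CPM in intact KO and 271 CPM in KO→KO, against 82.1 in WT→KO, 88.0 in KO→WT, 96.6 in WT→WT and 83.5 in intact WT. In that class both libraries with host and marrow KO were the highest for both genes. In B cells Tap1 was 88.0 CPM in intact KO and 102 CPM in KO→KO. The other libraries with at least 20 B cells held 31.7 (WT→KO, 6 UMIs), 56.5 (KO→WT, 46 UMIs) and 32.6 CPM (intact WT, 28 UMIs). In regulatory T cells Tap1 was 202 CPM in intact KO and 215 CPM in KO→KO, against 71.4 in KO→WT (9 UMIs) and 138 in WT→WT (18 UMIs). The Poisson 95% intervals of intact KO (150.1 to 265.0 CPM) and WT→WT (81.8 to 218.2 CPM) overlap, so these counts do not separate the 2 libraries. In CD4 T cells and NK cells intact KO lay inside the range of the others for Tap1. Tap2 overlapped in all of these lymphocyte classes.

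Around the members, 5 further gene lists of the pathway were read in the same fits, in which edgeR called 8.52% of all genes higher with both KO in macrophages, 2.03% in mesenchymal-like cells and 1.24% in CD8 T cells. All 9 MHC class I chains rose with both KO in macrophages (median 1.54, beside -0.01 over all genes) and all 9 rose in mesenchymal-like cells (median 1.79), and 0 of 9 were called in CD8 T cells by edgeR (median 0.04, 1 of 9 below an unadjusted p of 0.05). The class I heavy chain H2-K1 stood at 1760.0 CPM in intact KO and 2752 CPM in KO→KO, against 1080.0 in WT→KO, 1051 in KO→WT, 844 in WT→WT and 659 in intact WT in macrophages, and at 2065 CPM in intact KO and 2567 CPM in KO→KO, against 740.0 in WT→KO, 578 in KO→WT, 574 in WT→WT and 469.5 in intact WT in mesenchymal-like cells. Both libraries with host and marrow KO exceeded the rest in both classes, with log2 differences of 1.54 (SE 0.11, adjusted p = 0.00215) in macrophages and 2.11 (SE 0.13, adjusted p = 0.000186) in mesenchymal-like cells. B2m, the light chain, rose by 1.10 (SE 0.10, adjusted p = 0.00334) in macrophages and 1.45 (SE 0.11, adjusted p = 0.000265) in mesenchymal-like cells, and H2-D1 by 1.11 in macrophages. The non-classical chains H2-T22, H2-T23 and H2-M3 rose by 1.61, 1.84 and 0.77 in macrophages and by 1.69, 1.99 and 1.08 in mesenchymal-like cells, and H2-Q4 by 1.52 and 1.79. H2-Q6 and H2-Q7 are near-identical copies, so their 3.14 and 2.76 in macrophages are uncertain.

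Of the standard proteasome genes 6 of 17 rose in macrophages with both KO (Psma2, Psma3, Psma4, Psma5, Psme3 and the assembly factor Pomp, by 0.30 to 0.44), with a list median of 0.22, where 8.52% of all genes rose, and 0 of 17 passed by edgeR in mesenchymal-like cells (median 0.04, 0 below an unadjusted p of 0.05) or CD8 T cells (median 0.12, 2 below). The subunits that the immunoproteasome replaces were at 0.19 (SE 0.08, adjusted p = 0.151) for Psmb5, 0.11 (SE 0.08, adjusted p = 0.377) for Psmb6 and 0.24 (SE 0.08, adjusted p = 0.0799) for Psmb7 in macrophages. The abundant core subunits Psma7 (0.21), Psmb1 (0.09) and Psmb4 (0.22) did not pass in macrophages. In mesenchymal-like cells Psmb5 was at 0.09 (SE 0.10, adjusted p = 0.697) and Psmb6 at -0.16 (SE 0.11, adjusted p = 0.519).

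Of 7 other loading and trimming genes measured, 4 rose in macrophages and 1 in mesenchymal-like cells (medians 0.28 and 0.02), beside 8.52% and 2.03% of all genes. Tapbpl, a tapasin-like peptide editor, was the one called in both, at 1.21 (SE 0.14, adjusted p = 0.00622) in macrophages and 1.64 (SE 0.21, adjusted p = 0.00416) in mesenchymal-like cells. Pdia3, the disulfide isomerase of the loading complex, rose in macrophages by 0.28 (SE 0.07, adjusted p = 0.0495), Lnpep by 0.33 and Sec61a1 by 0.53, whereas the lectin chaperone Canx was at 0.04 (SE 0.08, adjusted p = 0.751) and Tpp2 at -0.15. In CD8 T cells edgeR called 0 of the 6 that passed the low-count filter, with 1 below an unadjusted p of 0.05. Among 10 ER folding genes, which are induced with Calr in ER stress, Hspa5 rose in macrophages by 0.47 (SE 0.12, adjusted p = 0.0463), and Hsp90b1 (0.15), Pdia6 (0.16) and Manf (0.41) did not pass. That 1 of 10 rose is near the share of all genes, 8.52%. None of the 10 passed in mesenchymal-like cells by edgeR (median 0.01, 0 below an unadjusted p of 0.05), and in CD8 T cells Hsp90b1 rose by 0.62 (SE 0.14, adjusted p = 0.0303) and Sdf2l1 by 0.90 (SE 0.19, adjusted p = 0.0232).

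Among interferon response regulators, the transcription factor Irf1 rose with both KO in macrophages by 2.59 (SE 0.13, adjusted p = 0.000963) on the log2 scale and was at 1.25 (SE 0.27, adjusted p = 0.0727) in mesenchymal-like cells. Nlrc5, the MHC class I transactivator, stood at 51.0 CPM in intact KO and 23.9 CPM in KO→KO, against 6.90 in WT→KO, 5.09 in KO→WT, 4.48 in WT→WT and 16.1 in intact WT in macrophages and rose by 2.03 (SE 0.18, adjusted p = 0.00355). Jak2 (1.35) and Irf8 (0.39) also rose in macrophages, and Nlrc5 (2.47), Irf8 (1.88) and Stat2 (1.95) in mesenchymal-like cells. The receptor gene Ifngr1 was at -0.37 (SE 0.13, adjusted p = 0.0967) and Jak1 at -0.06 (SE 0.07, adjusted p = 0.6) in macrophages. In CD8 T cells Irf8 rose by 2.77 (SE 0.24, adjusted p = 0.0011) and Ifngr2 fell by 1.74 on the log2 scale. Irf8 also marks cDC1. The summed cDC1 markers (4 of 4) were 333 and 676 CPM in CD8 T cells of intact KO and KO→KO, against 31.1 to 143 CPM in the other 4. The sum was not split by gene, so a rise of 1 marker is not told apart from a rise of all 4. Whether this sum moved apart from Irf8 was not tested, nor was the part of cDC1 transcripts in the Irf8 rise.

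The genes nearest to 3 of the members were named by Pearson's r of log2(CPM + 10) over 55 sums of class and library among 8227 genes. These sums share libraries, depth and the separation of the classes, so r is a description. Nearest to Psmb8 outside the members were H2-Q7 (r = 0.893), H2-Q6 (r = 0.86), Phf11b (r = 0.85), H2-K1 (r = 0.831) and H2-T23 (r = 0.827). Among the nearest to Tap1 were H2-T23 (r = 0.821), Phf11b (r = 0.807), H2-D1 (r = 0.784) and Phf11a (r = 0.77). Among the members themselves Psmb8 ran with Psmb9 (r = 0.929), and Tap1 with Tap2 (r = 0.928) and Psmb9 (r = 0.923). Calr was nearest to ER genes, Pdia6 (r = 0.926), Hsp90b1 (r = 0.921), Pdia3 (r = 0.894), Rpn1 (r = 0.89) and Rpn2 (r = 0.883), and had r = 0.027 with Tap1 and r = 0.118 with Psmb8.

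Tap1 (ENSMUSG00000037321, mm10 chromosome 17, 34187553 to 34197225, plus strand) and Psmb9 (ENSMUSG00000096727, chromosome 17, 34181987 to 34187764, minus strand) share 212 exonic bases in the annotation on opposite strands. The sources used here do not say whether counting used strand, so reads there could not be assigned with certainty. Psmb8 lies between Tap1 and Tap2 on chromosome 17 (34197721 to 34201454, plus strand), with 498 exonic bases under the antisense transcript Gm20496. Tapbp lies at 33915899 to 33929292 of the same chromosome, plus strand, and shares 149 exonic bases with Zbtb22 on its own strand and 904 with the antisense transcript Gm19412. Erap1 (chromosome 13, 74639568 to 74693201, plus strand) shares 834 with Cast, which lies antisense. Tap2 (34203527 to 34216321, plus strand) shares 165 exonic bases with Gm20496 and 533 with Gm15821, both antisense. Calr (84841850 to 84846934) and Psmb10 (105935735 to 105938444) lie on the minus strand of chromosome 8. Psme1 (55578123 to 55581529, plus strand) and Psme2 (55587441 to 55591113, minus strand) are neighbours on chromosome 14, and Psme1 shares 14 exonic bases with Emc9. Psme2 has a near-identical copy, Psme2b, which held 4.94 to 11.2 CPM in macrophages, so the assignment of reads between the copies is uncertain.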

How the data were processed

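Single-cell RNA was measured in 6 libraries, 1 per group, from sorted CD45-positive tumour cells. The authors deposited raw UMI counts per gene and barcode. Per the file headers these came from Cell Ranger 7.0.1 for the intact mice and Cell Ranger 6.1.1 for the transplanted mice. The submitters' processing notes name the mm10 build and Seurat. Intron counting, strand use and any removal of barcodes before deposit are not given in the sources used here.

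Libraries were joined on Ensembl identifier. Barcodes under 500 UMIs, under 200 genes or over 15% mitochondrial UMIs were dropped. Cells were gated on marker genes, and thresholds were chosen after marker counts were seen. Cells with markers of more than 1 lineage (1125) or that met no class gate (4998 unassigned) were left out, and no doublet caller was applied otherwise, since Scrublet's automatic threshold marked at most 4 cells per library. UMIs were summed per class and library, and a level needed at least 20 cells. Sums were tested with edgeR 4.0.16 in R 4.3.3 (robust quasi-likelihood fit, TMM, filterByExpr, Benjamini-Hochberg adjustment over all genes tested), with DESeq2 1.42.0 as an alternative. The standard error is the log2 difference divided by the root of F. A term for transplantation, in which the software version is contained, stood in every genotype fit. CPM were computed from class totals, and Poisson intervals cover counting error only. Code was tested on simulated counts. Start-site sequences are from RefSeq, build GRCm38.p6, and 53 of 54 list genes matched.

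The members and lists, and the contrast of both KO, were chosen with earlier results of these data known. Named genes are all 10 members, the 4 most abundant genes in macrophages of each list, list genes past the threshold for both KO, and the 5 nearest patterns for Psmb8, Tap1 and Calr, of which 1 item is not reported here. Alternatives were library totals, DESeq2, no low-count filter, a stricter gate, the 6% highest Scrublet scores left out, at least 1000 UMIs per cell, transplanted libraries alone, each library left out, and macrophages with no Cxcl9 UMI.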

Additional observations from a re-analysis of the deposited data

Results flagged for a closer look

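The difference between libraries with host and marrow both KO and the other 4, fitted beside a term for transplantation, was not the same size in every class. This rests on a test of the difference itself that was added after seeing the data (edgeR's quasi-likelihood test, Benjamini-Hochberg adjusted over all genes). In mesenchymal-like cells relative to macrophages it was larger on the log2 scale for Psmb9 (1.20), Psmb8 (0.96) and Tap1 (0.85), and smaller for Psme2 (-0.41). In CD8 T cells relative to macrophages it was smaller for Tap1 (-1.91), Psmb9 (-1.49), Tap2 (-1.37), Tapbp (-1.18), Psmb10 (-1.17), Psmb8 (-1.14), Psme1 (-1.08) and Psme2 (-1.07). Tap1, Psmb8 and Psmb9 passed in both comparisons with opposite signs, Psme2 was smaller in both, and Calr and Erap1 passed in neither. In the comparison with mesenchymal-like cells Tap1 lost its call with no filter (0.83), without KO→WT (0.88) or WT→WT (0.84), and, at a smaller difference, without intact KO (0.55), without intact WT (0.55) and with the transplanted libraries alone (0.52). The fits without an intact library rest on the same contrast as the transplanted libraries alone. Psme2 lost its call there without any 1 library other than WT→WT and with the transplanted libraries alone, at -0.38 to -0.47. In the comparison with CD8 T cells Psme2 lost it without KO→KO (-0.90). No group holds enough libraries for a check of single libraries within a group.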

How the results depend on the processing

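Members called for both KO numbered 7 to 10 in macrophages, 6 to 9 in mesenchymal-like cells and 0 in CD8 T cells when each library was left out. Other settings gave 9 or 10 in macrophages and 8 or 9 in mesenchymal-like cells, and in CD8 T cells 0, or 1 (Calr) with library totals and with no low-count filter. For host genotype DESeq2 gave 1 in macrophages and 1 in mesenchymal-like cells, and leaving out libraries gave 0 to 6 in mesenchymal-like cells. For marrow genotype there it gave 0 to 4. The 6 came without WT→KO and the 4 without KO→WT. In those fits KO host or KO marrow marks only the libraries with both KO. CD8 T cells against macrophages had 3 without a filter and 3 to 7 with a library left out. The mesenchymal-like difference of differences had 2 in transplanted libraries alone and 2 to 4 with a library left out. The host by marrow term had 1 (Tap1) in macrophages under DESeq2, no filter and no Cxcl9 UMI. In mesenchymal-like cells it had 0 under library totals, the stricter gate and Scrublet removal, and 4 without a filter.

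Directions turned for values near 0, and for Psme1 between mesenchymal-like cells and macrophages, which was called lower at -0.26 with TMM and higher with library totals. Tapbp for both KO in CD8 T cells was 0.06 with totals, 0.06 without a filter, 0.09 in transplanted libraries alone and -0.13 to 0.09 with a library left out. Calr for both KO in mesenchymal-like cells was 0.03 in transplanted libraries alone and -0.11 to 0.03 with a library left out. Between mesenchymal-like cells and macrophages, totals gave Psmb10 0.27, Psme1 0.12 and Psme2 0.35, and Psme2 was 0.01 with DESeq2, 0.01 with the stricter gate, 0.08 in transplanted libraries alone and -0.06 to 0.08 with a library left out. Psmb10 in CD8 T cells against macrophages ran from -0.01 to 0.29 with a library left out, and Tapbp in cDC1 against macrophages from -0.03 to 0.25. In transplanted libraries alone Calr was 0.01 and Psmb10 0.03 in cDC1, and the Tap2 difference of differences was -0.01. The Calr interaction in mesenchymal-like cells was 0.01 with totals, 0.01 with DESeq2 and 0.00 after Scrublet removal. The cause was not tested for any of these.

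Counts of all genes called for both KO moved to 3592 with DESeq2 from 2321 in macrophages, to 631 with DESeq2 and 783 without a filter from 368 in mesenchymal-like cells, and to 800 without a filter from 309 in CD8 T cells. The host by marrow term could not be fitted with a library left out or in transplanted libraries alone, for want of residual degrees of freedom. No paired analysis was possible because each genotype group holds 1 library and the shared number marks no pair. Class comparisons were made within libraries from the outset, and matched pairs of libraries were described without a test. With 1 library per group, depth limits the small classes (down to 21 cells) most.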
